A study of Mus musculus with 12 samples.

Results

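The comparison described here set 3 midbrain libraries taken 12 weeks after saline against 3 taken 7 weeks after saline, which are 6 of the 12 libraries of the study. All mice were C57BL/6. Saline was injected into the substantia nigra on both sides, and the other 6 libraries, 3 at each time, came from mice given preformed fibrils of G51D α-synuclein in the same way (20 µg at 5 µg/µL). In every group, cells carrying the fluorescent protein hKO1, which the labels use to mark dopaminergic neurons, were sorted from dissected midbrain, and the labels call their cell type neural cells. Which promoter drives hKO1 is not stated in the labels. Nothing in the labels says that replicates came from separate animals, and no ages are given, so time after injection, age and collection session cannot be told apart. All 24346 genes in the deposited tables were considered, and the 17380 with enough counts were tested.

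Midbrain dopaminergic neurons make dopamine from tyrosine, load it into vesicles through a vesicular monoamine transporter and take it back up through the dopamine transporter. Oligodendrocytes wrap axons in myelin, and in the adult brain they go on forming it under the transcription factors Sox10 and Myrf. Vessels and other glia lie in the midbrain, ependymal cells line the ventricles, and such cells can enter a dissected sample before cells are sorted. Heat-shock and glucocorticoid-responsive genes vary with stress and hormone levels.

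Promoter sequences are shown for 6 genes of the groups described below, as RefSeq gives the 250 bases before a gene start (GRCm38.p6, written 5′ to 3′ on the strand of the gene). RefSeq gives 3 such windows for Mag, 2 for Galnt6, 6 for Sgk1, 3 for Dnaja1 and 1 each for Cnp and Hspb1. Where a gene had several, the window with the most matches to the motif was shown, so the other windows may lack it. Capitals mark the core motif of SOX factors, ACAAAG, in the promoters of the myelin genes Mag (chr7:30914864-30915113, minus strand) and Cnp (chr11:100574689-100574938, plus strand) and of Galnt6 (chr15:100720478-100720727, minus strand), the gene with the smallest p among those named by rule as higher at 12 weeks. They mark the full glucocorticoid response element in Sgk1 (chr10:21993640-21993889, plus strand), and the heat-shock element GAANNTTC in the chaperone genes Hspb1 (chr5:135887669-135887918, plus strand) and Dnaja1 (chr4:40722218-40722467, plus strand). Both strands were searched, so CTTTGT in Mag is the SOX core read from the other strand.
Mag: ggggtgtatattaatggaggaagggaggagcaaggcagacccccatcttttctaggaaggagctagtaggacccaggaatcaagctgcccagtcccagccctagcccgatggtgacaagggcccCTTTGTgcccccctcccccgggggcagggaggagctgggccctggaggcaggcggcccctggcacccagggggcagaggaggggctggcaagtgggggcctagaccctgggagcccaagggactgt
Cnp: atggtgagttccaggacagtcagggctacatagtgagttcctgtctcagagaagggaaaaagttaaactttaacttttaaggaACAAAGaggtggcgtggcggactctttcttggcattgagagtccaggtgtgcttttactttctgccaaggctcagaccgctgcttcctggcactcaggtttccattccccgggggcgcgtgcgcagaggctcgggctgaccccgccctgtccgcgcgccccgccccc
Galnt6: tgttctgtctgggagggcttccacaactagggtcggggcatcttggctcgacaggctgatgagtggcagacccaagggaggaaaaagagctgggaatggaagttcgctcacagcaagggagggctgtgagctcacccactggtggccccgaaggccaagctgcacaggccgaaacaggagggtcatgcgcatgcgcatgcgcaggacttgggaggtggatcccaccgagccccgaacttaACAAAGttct
Sgk1: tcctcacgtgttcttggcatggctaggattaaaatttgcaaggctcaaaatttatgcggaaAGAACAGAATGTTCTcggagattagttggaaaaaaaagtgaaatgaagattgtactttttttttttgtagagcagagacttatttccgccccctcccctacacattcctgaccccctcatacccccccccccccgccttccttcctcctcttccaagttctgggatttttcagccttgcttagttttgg
Hspb1: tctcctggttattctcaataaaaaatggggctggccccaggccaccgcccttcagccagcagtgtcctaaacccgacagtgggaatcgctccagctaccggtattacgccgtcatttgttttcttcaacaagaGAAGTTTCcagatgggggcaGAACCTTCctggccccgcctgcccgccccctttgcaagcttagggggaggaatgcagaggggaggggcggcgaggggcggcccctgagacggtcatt
Dnaja1: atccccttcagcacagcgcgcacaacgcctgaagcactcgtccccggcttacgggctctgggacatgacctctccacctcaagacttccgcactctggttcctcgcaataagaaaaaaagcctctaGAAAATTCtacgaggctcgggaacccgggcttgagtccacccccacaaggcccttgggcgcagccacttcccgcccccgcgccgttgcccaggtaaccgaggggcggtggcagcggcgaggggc

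A RefSeq window was present for 126 of the 172 genes named by rule. ACAAAG occurred in a window of 6 of 13 myelin protein genes (46.2%), of 3 of 11 among the 15 genes named below as higher (27.3%), of 2 of 10 among the 15 named as lower (20.0%) and of 18.6% of all 27025 genes with a window (15.5% of those tested). It occurred in 2 of 9 oligodendrocyte transcription factor genes (22.2%), 1 of 9 axon-glia and gap junction genes (11.1%) and 0 of 14 myelin lipid genes. GAANNTTC occurred in 6 of 13 heat-shock genes (46.2%) against 7.73% of all genes with a window, and Hspb1 held it at 2 places, starting 117 and 97 bases before the gene start. The full glucocorticoid element occurred in 1 of 12 glucocorticoid-responsive genes, Sgk1, and in 3 of all 27025 genes. A longer form of the heat-shock element occurred in 2 of 13 heat-shock genes (15.4%) against 0.51% of all genes. The glucocorticoid core TGTTCT, which lies within the full element, occurred in 2 of 12 glucocorticoid-responsive genes (16.7%) against 18.2%. The cAMP response element TGACGTCA occurred in 2 of 23 early-response genes (8.7%) against 1.77%, and the GC box GGGCGG in 8 of 11 genes named as higher (72.7%) and 8 of 10 named as lower (80.0%) against 35.4% of all genes and 56.0% of those tested. Of 2 forms of the X-box of ciliary genes, 1 occurred in 1 of 15 ependymal genes (6.67%) against 0.53%, and the other in 0 of 15 against 0.13%. A gene counted if any of its windows matched, and the number of windows per gene differed between the sets. There were 20 windows for the 13 myelin protein genes, 18 for the 13 heat-shock genes and 32851 for all 27025 genes. The shares were not adjusted for this. These matches describe letters in the windows and say nothing of binding.

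At 12 weeks oligodendrocyte genes such as Sox10, Galnt6 and Mbp lay 1.24 to 2.02 higher on the log2 scale. The synaptic gene Snap25, the 14-3-3 gene Ywhah and the endothelial gene Slc2a1 lay lower, at −1.82 to −1.25, and Th and Slc6a3 of dopaminergic neurons lay at −1.16 and −1.07. No gene passed the test over all genes. EdgeR's quasi-likelihood test, fitted to all 12 libraries with Benjamini-Hochberg adjustment over 17380 genes, called 0 genes at an adjusted p under 0.05 (0.0%), and 10 genes had an adjusted p below 0.1 (0.0575%). At an unadjusted p under 0.05 there were 1289 genes (7.42%), of which 607 lay higher at 12 weeks (3.49%) and 682 lower (3.92%). The 2 groups did not overlap for 1449 genes that lay higher (8.34%) and 1360 that lay lower (7.83%). A fold lay above 0 for 51.0% of all genes tested and below 0 for 49.0%, with a median of 0.01 on the log2 scale, and every fold below is a log2 value of 12 against 7 weeks with its standard error.

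Fitted alone, without the synuclein libraries, the 6 saline libraries gave 49 calls among 15861 genes at an adjusted p under 0.05 (0.309%), 29 higher (0.183%) and 20 lower (0.126%). That count rested on single libraries: it was 0 without replicate 2 or replicate 3 of 7 weeks or without replicate 3 of 12 weeks, 21 without replicate 1 of 12 weeks, 56 without replicate 2 of 12 weeks, and 121 without replicate 1 of 7 weeks. All 49 genes kept their sign and an unadjusted p under 0.05 in each of these 6 fits. They were chosen by their p in the same libraries, so this was close to fixed in advance and is given as a description. DESeq2, fitted to all 12 libraries, called 165 genes, 93 higher and 72 lower, and 38 of the 49 were among them. On simulated counts of 16813 genes with known changes, edgeR over 12 libraries made 1 false call. It recovered 6% of 2-fold, 35.8% of 4-fold and 86.4% of 8-fold changes. DESeq2 made 31 false calls there and recovered 17.9%, 53.7% and 90.9%, and edgeR on the saline libraries alone made 6 false calls. The counts were a single draw with each gene's spread estimated from all 12 libraries and with no outlying library, so these rates may not hold for the real libraries. Replicates 1 and 2 of synuclein at 12 weeks lay apart from all other libraries on the first 2 principal components, and without both of them edgeR called 14 genes. Without both, only replicate 3 was left in the synuclein group of 12 weeks, so synuclein values given without them rest on 1 library at that time. Values from the fit of the saline libraries alone are named as such below, and adjusted p-values without that name come from edgeR's test over all 12 libraries.

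Genes of oligodendrocytes led the list of those higher at 12 weeks. Sox10, the lineage factor of oligodendrocytes (chromosome 15, 79154913 to 79164490), was at 39.2, 56.2 and 47.1 CPM at 7 weeks and 279.9, 97.2 and 180 CPM at 12 weeks. The groups did not overlap, and the fold was 1.97 ± 0.36 (adjusted p = 0.0886; saline libraries alone, edgeR adjusted p = 0.0309). Mbp, myelin basic protein (chromosome 18, 82475123 to 82585637), was at 4230, 4065 and 3364 CPM at 7 weeks and 8182, 8529 and 10737 CPM at 12 weeks, so every 12-week library was above every 7-week library, at a fold of 1.24 ± 0.24 (edgeR adjusted p = 0.0978, and 0.0658 in the saline libraries alone). Galnt6, an enzyme that starts O-linked glycosylation (chromosome 15, 100689915 to 100729376), was at 40.9, 19.6 and 34.2 CPM at 7 weeks and 171, 83.2 and 129 CPM at 12 weeks. It had a fold of 2.02 ± 0.35 (edgeR adjusted p = 0.0886; saline libraries alone, 0.0309), with no overlap, replicate 1 being highest and replicate 2 lowest at 12 weeks.

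Replicate 2 was the low library at 12 weeks for Sox10 as well as Galnt6. Nipal4, a membrane protein related to magnesium transporters, was at 21.8, 9.23 and 22.96 CPM at 7 weeks and 83.5, 71.5 and 70.4 CPM at 12 weeks, a fold of 2.06 ± 0.36 with the 12-week libraries close together. Nipal4 passed in the saline libraries alone (edgeR adjusted p = 0.0309). Rassf2, which carries a Ras-association domain, was at 2.03 ± 0.41, and Gpr37, a receptor of myelinating cells, at 1.42 ± 0.28 (saline libraries alone, edgeR adjusted p = 0.0391 and 0.0443). Myrf, the factor that drives myelin genes, was at 1.47 ± 0.32 and Cntn2, a contactin found where axon and myelin meet, at 1.29 ± 0.28, with adjusted p = 0.0577 and 0.065 in the saline libraries alone by edgeR.

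Further genes named by rule as higher were Dpy19l1, Tmem125, Adamtsl4, Tmem88b, Pigz and Ddr1, a collagen receptor, with folds from 1.26 to 1.77. Over all 15 that the rule chose, folds ran from 1.24 to 2.06 with a median of 1.47, and 12 passed in the saline libraries alone. They were chosen by p and lack of overlap in these same saline libraries. Large folds and passing there were thus likely in advance and are given as a description. In the synuclein libraries, which shared no library with this comparison, 1318 genes reached an unadjusted p under 0.05 for time (7.58%), 575 higher (3.31%) and 743 lower (4.28%), and edgeR called 0 at an adjusted p under 0.05 where DESeq2 called 82. All 15 named genes lay higher at 12 weeks there as well, at a median of 0.91, and 11 of them reached an unadjusted p under 0.05. All 15 also lay higher without the synuclein libraries that lie apart.

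**Figure D1:**
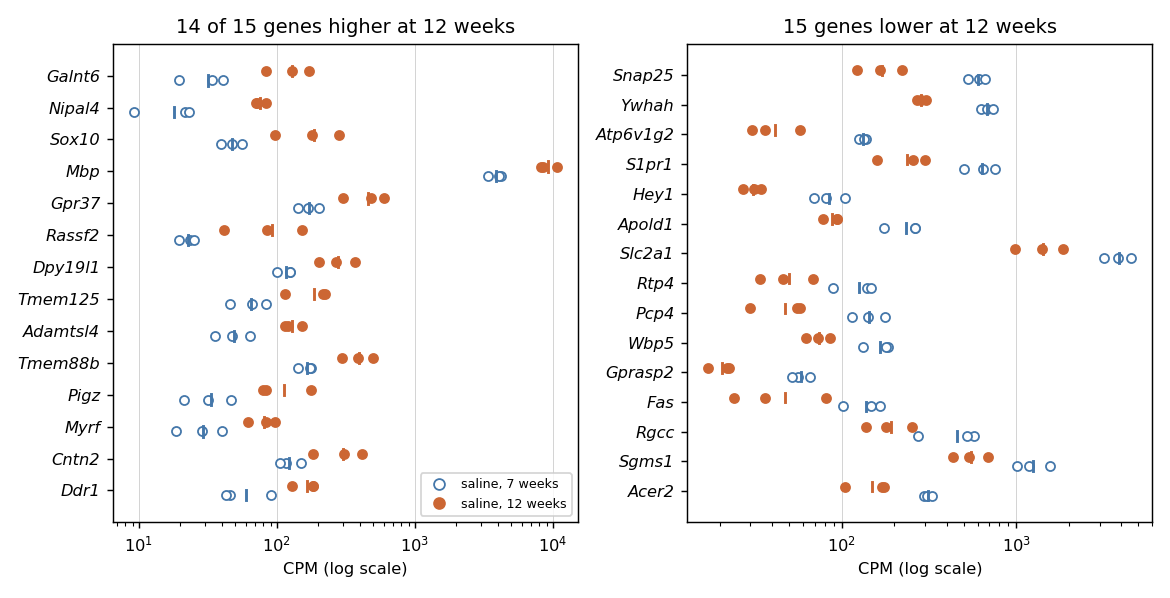
CPM of 14 of the 15 genes chosen by rule as higher and of the 15 chosen as lower at 12 weeks, on log axes, with 1 point per saline library (open, 7 weeks; filled, 12 weeks) and a tick at each group's mean. The genes were chosen because the groups do not overlap, so the gap between the groups is part of the choice; Mbp is the most abundant of the higher genes and Slc2a1 of the lower.

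All 15 myelin protein genes tested lay higher at 12 weeks, and 12 reached an unadjusted p under 0.05, with a median of 0.91. The groups did not overlap for 5 of them. Mag, an adhesion protein on the inner face of myelin, was at 1075, 728 and 635 CPM at 7 weeks and 2443, 1002 and 2091 CPM at 12 weeks, where replicate 2 of 12 weeks lay below replicate 1 of 7 weeks and the groups overlapped. Its fold was 1.18 ± 0.30 (edgeR adjusted p = 0.226). Cnp, a phosphodiesterase of myelin, had a fold of 1.06 ± 0.28, Plekhb1 of 1.03 ± 0.25 and Mal, the lowest of the list, of 0.39 ± 0.26. Replicate 1 of 12 weeks was the highest of the 6 saline libraries for 12 of the 15 genes. In synuclein all 15 lay higher too, with a median of 0.68.

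Transcription factors of the lineage and junction genes lay in the same direction. Of 13 oligodendrocyte transcription factors 11 lay higher, 7 at an unadjusted p under 0.05, with a median of 0.95. Olig1, needed for oligodendrocyte maturation, was at 296, 248 and 186 CPM at 7 weeks and 595, 335 and 632 CPM at 12 weeks, a fold of 1.10 ± 0.26, while Olig2 was at −0.03 ± 0.41 and Tcf7l2, which is high in newly forming oligodendrocytes, at −0.43 ± 0.35. Of 13 axon-glia adhesion and gap junction genes 11 lay higher, 8 at an unadjusted p under 0.05, with a median of 1.02, among them Hapln2, a link protein of nodes, at 1.13 ± 0.29 and Gjb1 at 1.02 ± 0.34. Markers of precursors and newly formed oligodendrocytes had a median of 0.09, with 8 of 15 higher, and the sign turned without replicate 3 of 7 weeks (−0.06) or replicate 2 of 12 weeks (−0.10). The 2 members at an unadjusted p under 0.05 were Bcas1, a marker of newly myelinating cells, at 1.63 ± 0.37 without overlap (saline libraries alone, edgeR adjusted p = 0.0337), and Vcan, the proteoglycan versican, at 1.32 ± 0.44. The list summed to 505, 571 and 469 CPM at 7 weeks and 602, 651 and 724 CPM at 12 weeks, higher without overlap. Most of that rise lay in Bcas1, whose mean went from 58.2 to 179.8 CPM while the mean sum went from 515.2 to 659.1 CPM. The gap between the sums is therefore no trait of the whole list. Pdgfra, the receptor that marks precursors, was at −0.10 ± 0.61, and Enpp6, a marker of newly formed cells, at 0.52 ± 0.34.

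Lipid genes of myelin lay higher for 15 of 17 members, 8 at an unadjusted p under 0.05, with a median of 0.65. Fa2h, which hydroxylates the fatty acids of myelin lipids, was at 1.30 ± 0.37, Gal3st1, which makes sulfatide, at 1.03 ± 0.37 and Scd1, a fatty acid desaturase, at 1.10 ± 0.35. The median over cholesterol synthesis genes was 0.17, with 2 of the 15 higher members (of 21) reaching an unadjusted p under 0.05, and the median was 0.06 without replicate 2 of 7 weeks, 0.05 without replicate 1 of 12 weeks and 0.29 without replicate 1 of 7 weeks or replicate 3 of 12 weeks. Of 12 iron genes 9 lay lower and 3 higher, with a median of −0.24, which was −0.04 without replicate 3 of 7 weeks and −0.09 without replicate 1 of 12 weeks. Slc40a1, the iron exporter, was at −0.77 ± 0.36. Trf, the iron carrier transferrin that oligodendrocytes make, was at 1.04 ± 0.30, and Fth1, the heavy chain of ferritin, at 0.72 ± 0.23, both the other way. Of 4 nuclear factor I genes 3 lay higher without overlap. Nfix was at 51.5, 46.4 and 42.2 CPM at 7 weeks and 129.6, 136 and 121 CPM at 12 weeks, with little spread and a fold of 1.46 ± 0.30 (edgeR adjusted p = 0.147; saline libraries alone, 0.0309).

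Summed over the myelin proteins, the libraries held 28597, 19802 and 18532 CPM at 7 weeks and 49146, 28477 and 44585 CPM at 12 weeks. The 12-week sums lay above the 7-week sums except that replicate 2 of 12 weeks was just under replicate 1 of 7 weeks. In bulk samples, more or fewer cells of a type and more or less RNA per cell cannot be told apart.

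Among the genes named by rule as lower at 12 weeks, Snap25 had the smallest p. Snap25, a SNARE protein that fuses synaptic vesicles with the membrane (chromosome 2, 136713450 to 136782428), was at 611, 663 and 527 CPM at 7 weeks and 222, 166 and 123 CPM at 12 weeks. Every 12-week library was below every 7-week library, and the fold was −1.82 ± 0.33 (edgeR adjusted p = 0.0886; saline libraries alone, 0.0309). Ywhah, a 14-3-3 protein (chromosome 5, 33018816 to 33027966), was at 628, 678 and 739.8 CPM at 7 weeks and 303, 272 and 284 CPM at 12 weeks, a fold of −1.25 ± 0.24 (edgeR adjusted p = 0.0962; saline libraries alone, 0.0443). Atp6v1g2, the neuronal G subunit of the vacuolar proton pump, was at 126, 137 and 134 CPM at 7 weeks and 57.7, 36.2 and 30.7 CPM at 12 weeks, a fold of −1.67 ± 0.33 (saline libraries alone, edgeR adjusted p = 0.0309). The groups did not overlap for these 3 genes, and the libraries of both groups lay close together for Ywhah.

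Genes known from endothelium stood among the same 15. Slc2a1, the glucose transporter of the blood-brain barrier (chromosome 4, 119108745 to 119137329), was at 3190, 4557 and 3802 CPM at 7 weeks and 988, 1406 and 1861 CPM at 12 weeks, a fold of −1.44 ± 0.33. S1pr1, a receptor for sphingosine 1-phosphate, was at −1.41 ± 0.31, Hey1, a Notch target, at −1.45 ± 0.33, and Apold1, an endothelial early-response gene, at −1.40 ± 0.31, and these 3 passed in the saline libraries alone (edgeR adjusted p = 0.0475, 0.0443 and 0.0391). Slc2a1 did not (edgeR adjusted p = 0.056). The rest were Rtp4, an interferon-induced gene, at −1.34 ± 0.30, Pcp4, a calmodulin regulator of neurons, at −1.60 ± 0.37, and Wbp5, Gprasp2, Fas, Rgcc, Sgms1 and Acer2 between −1.55 and −1.06.

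Over these 15 genes the median was −1.41, and 7 passed in the saline libraries alone. As for the higher genes, the choice was made on these same saline libraries, so both values are given as a description. In synuclein 14 of the 15 lay lower, 6 of them reaching an unadjusted p under 0.05, with a median of −0.49, and 11 of 15 lay lower there without replicate 1 of synuclein at 12 weeks. For the difference between the treatments, 780 of 17380 genes (4.49%) reached an unadjusted p under 0.05, and edgeR, DESeq2 and limma-voom each called 0. Without replicate 1 of synuclein at 12 weeks, 1601 of 17380 genes reached that p by edgeR. Genes named by their saline p were chosen on values that enter that difference, so it is given for them as a description. Gprasp2, a sorting protein of receptors, was at −1.66 ± 0.35 in synuclein and −1.50 ± 0.35 in saline, and Hey1 at −0.09 ± 0.32 in synuclein.

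The genes of dopamine synthesis and transport mostly lay lower at 12 weeks, and none of them passed. Th, which makes L-DOPA from tyrosine and limits the rate of the pathway (chromosome 7, 142892776 to 142899966), was at 712, 518 and 362 CPM at 7 weeks and 334, 217 and 160.5 CPM at 12 weeks. Its groups did not overlap, with replicate 1 highest at both times, and the fold was −1.16 ± 0.39 (edgeR adjusted p = 0.413). Gch1, which makes the cofactor of Th, was at 191, 150 and 155 CPM at 7 weeks and 55.1, 76.1 and 95.04 CPM at 12 weeks, without overlap and with less spread, a fold of −1.13 ± 0.31 (edgeR adjusted p = 0.267). Slc6a3, the dopamine transporter, was at 456, 439.6 and 359 CPM at 7 weeks and 319, 139.6 and 139.8 CPM at 12 weeks, again without overlap, a fold of −1.07 ± 0.42. Slc18a2, the vesicular monoamine transporter, was at 233, 95.5 and 102 CPM at 7 weeks and 99.2, 38.8 and 30.7 CPM at 12 weeks, where replicate 1 of 12 weeks lay above replicate 2 of 7 weeks, and its fold was −1.35 ± 0.47.

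Ddc, which turns L-DOPA into dopamine, was at −0.44 ± 0.35 with overlapping groups, and Gchfr, the feedback regulator of Gch1, was listed at 0 in replicate 3 of 12 weeks. Qdpr, which recycles the cofactor and is also expressed by glia, lay the other way at 0.89 ± 0.30. Drd2, the D2 autoreceptor, was low in every library, at 13.7, 18.2 and 5.74 CPM at 7 weeks and 17.1, 4.27 and 6.60 CPM at 12 weeks, and its fold was −0.43 ± 0.71. Of 8 dopamine synthesis genes 6 lay lower, 3 at an unadjusted p under 0.05 and with a median of −0.49, and of 8 transport and receptor genes 6 lay lower, 3 at that p and with a median of −0.70. The first median was −0.28 without replicate 1 of 7 weeks, −0.25 without replicate 3 of 12 weeks and −0.74 and −0.76 without replicates 1 and 2 of 12 weeks, and the second was −0.46 without replicate 2 of 7 weeks −1.36 without replicate 1 of 12 weeks and −1.15 with the replicate block in the saline libraries alone. The summed synthesis genes overlapped, with Qdpr the most abundant member by counts. In each of these 2 lists replicate 1 of 7 weeks was the highest of the 6 saline libraries for 4 of 8 genes.

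Genes of dopaminergic identity were mixed, with 11 of 17 lower and 6 higher. Folds of the 6 reached at most 0.56, and 0 of the 6 were at an unadjusted p under 0.05. The members given here, all lower, were chosen by a small p or as core markers. Chrna6, a nicotinic receptor subunit of these neurons, was at 133, 47.02 and 63.4 CPM at 7 weeks and 28.7, 17.95 and 21.2 CPM at 12 weeks, a fold of −1.84 ± 0.51, and Calb1, calbindin of the ventral tegmental subtype, was at 118, 81.9 and 58.8 CPM at 7 weeks and 34.5, 28.2 and 26.4 CPM at 12 weeks, a fold of −1.54 ± 0.42. Both lay lower without overlap and passed in the saline libraries alone (edgeR adjusted p = 0.0473 and 0.0462). Nr4a2, a factor that keeps dopaminergic identity, was at −1.19 ± 0.45, and Aldh1a1, an aldehyde dehydrogenase of the ventral nigra, at −1.55 ± 0.52. Pitx3 was at 16.03, 2.60 and 9.18 CPM at 7 weeks and 5.51, 1.14 and 0.861 CPM at 12 weeks, a fold of −1.88 ± 1.13, with overlapping groups and few fragments. Over 17 identity genes 11 lay lower, 4 at an unadjusted p under 0.05 and with a median of −0.28, which was −0.67 without replicate 1 and −0.48 without replicate 3 of 12 weeks, and −0.56 with limma-voom. Replicate 1 of 7 weeks was the highest of the 6 saline libraries for 10 of the 17, against 18.6% of all genes tested. Sncg, γ-synuclein, was at −1.08 ± 0.47.

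In synuclein the folds were below 0 as well, with Th at −1.41 ± 0.39, Slc6a3 at −1.45 ± 0.43 and Chrna6 at −1.89 ± 0.51. The difference between the treatments was at an unadjusted p under 0.05 for 0 of 8 synthesis, 0 of 8 transport and 0 of 17 identity genes. For Th the difference, saline minus synuclein, was 0.25 ± 0.54. On the scale of FPKM, which divides by transcript length, Th had means of 329 ± 109 FPKM at 7 weeks and 147 ± 53.6 FPKM at 12 weeks (SD, n = 3), Mbp of 2061 ± 244 FPKM at 7 weeks and 4841 ± 747 FPKM at 12 weeks (SD, n = 3) and the endothelial Slc2a1 of 1561 ± 272 FPKM at 7 weeks and 576 ± 179 FPKM at 12 weeks (SD, n = 3). The dopaminergic markers Th and Slc6a3 were present in all 6 libraries, and markers of oligodendrocytes and endothelium were present beside them at both times.

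**Figure D2:**
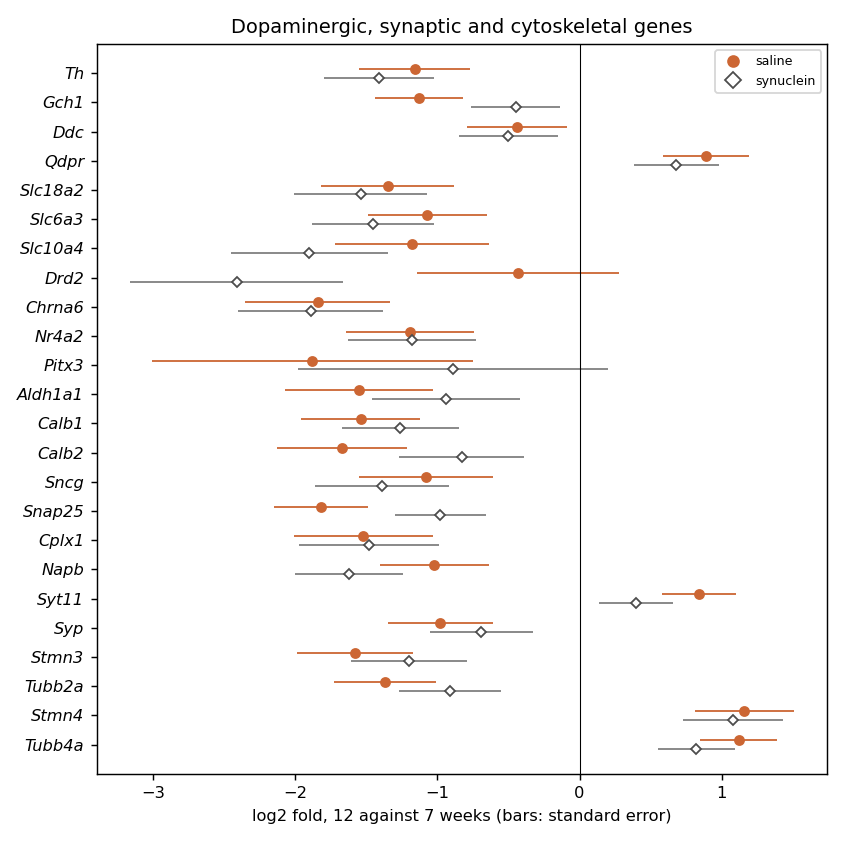
Log2 fold of 12 against 7 weeks, with its standard error, for 24 dopaminergic, synaptic and cytoskeletal genes named in the text or by rule, in saline (filled) and in synuclein (open). Most lie below 0 in both treatments, while Qdpr, Syt11, Stmn4 and Tubb4a lie above 0 in both. Many were chosen for a small p in saline, so their distance from 0 in saline is part of the choice. The 6 of 17 identity genes that lay higher in saline are not shown.

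Of 20 SNARE and fusion genes 18 lay lower, 9 at an unadjusted p under 0.05, with a median of −0.69 in saline and −0.72 in synuclein. Replicate 1 of 7 weeks was the highest of the 6 saline libraries for 10 of these 20, and for 10 of the 20 synaptic vesicle genes below. Over all genes tested that share was 18.6%. Cplx1, a complexin that clamps fusion, was at 584, 278 and 366 CPM at 7 weeks and 214, 126 and 87.3 CPM at 12 weeks, a fold of −1.52 ± 0.49, Napb, the neuronal SNAP that recycles SNARE complexes, was at −1.02 ± 0.38, and Syt1, the calcium sensor of release, was at −0.91 ± 0.37. Syt11, a synaptotagmin also found in glia, lay the other way, at 930.4, 772 and 640.2 CPM at 7 weeks and 1871, 939.5 and 1394 CPM at 12 weeks, a fold of 0.84 ± 0.26. Of 20 synaptic vesicle genes 16 lay lower, 5 at that p, with a median of −0.31, which was −0.17 without replicate 2 of 12 weeks. Syp, synaptophysin, was at 113, 105 and 82.6 CPM at 7 weeks and 46.98, 49.6 and 55.4 CPM at 12 weeks, without overlap and with a fold of −0.98 ± 0.37.

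Cytoskeletal genes split by member. Stmn3, a neuronal stathmin that destabilises microtubules, was at 286, 198 and 198 CPM at 7 weeks and 95.1, 76.6 and 55.99 CPM at 12 weeks, a fold of −1.58 ± 0.41, and Tubb2a was at 296, 253 and 231 CPM at 7 weeks and 113, 106 and 82.4 CPM at 12 weeks, a fold of −1.37 ± 0.36, and both passed in the saline libraries alone (edgeR adjusted p = 0.0337 and 0.0391). Stmn2 was at −0.91 ± 0.30, Nefl, the light neurofilament, at −1.22 ± 0.42, and Basp1, a growth-cone protein, at −1.22 ± 0.40. Tubb4a, a tubulin abundant in oligodendrocytes, was at 2183, 1518 and 1507 CPM at 7 weeks and 4736, 2471 and 4074 CPM at 12 weeks, a fold of 1.12 ± 0.27, and Stmn4 was at 152, 78.5 and 95.6 CPM at 7 weeks and 339, 143 and 244 CPM at 12 weeks, a fold of 1.16 ± 0.35. Of the 27 genes 17 lay lower and 10 higher, of which 8 and 2 reached an unadjusted p under 0.05, with a median of −0.47, which was −0.76 without replicate 3 of 7 weeks.

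Calcium-binding genes lay lower for 13 of 15 members, 6 at an unadjusted p under 0.05 and 9 without overlap, with a median of −0.73. Pcp4 was at 114, 141 and 177 CPM at 7 weeks and 55.4, 29.9 and 57.4 CPM at 12 weeks, Calb2, calretinin, at 88.4, 66.9 and 40.5 CPM at 7 weeks and 25.2, 15.1 and 20.96 CPM at 12 weeks, and Vsnl1, visinin-like protein, had a fold of −1.48 ± 0.54. Imprinted genes lay lower for 15 of 17, 6 at that p and 8 without overlap, with a median of −0.74, which was −0.32 with no filter on low counts and −0.48 without replicate 3 of 12 weeks or with a filter of at least 5 CPM. Ndn, necdin, was at 172, 218 and 163 CPM at 7 weeks and 119, 83.2 and 78.7 CPM at 12 weeks, a fold of −0.98 ± 0.37, Grb10, an adaptor of insulin signalling, was at 75.8, 78.2 and 74.6 CPM at 7 weeks and 51.6, 34.5 and 31.3 CPM at 12 weeks, a fold of −0.96 ± 0.28, and Meg3, a long non-coding RNA of neurons, was at −0.87 ± 0.40. Summed imprinted genes were at 2591, 2660 and 2575 CPM at 7 weeks and 1810, 1717 and 1789 CPM at 12 weeks, without overlap. In synuclein 16 of the 17 lay lower.

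Peptide genes lay lower for 12 of 17 members, with a median of −0.43, which was −0.25 without replicate 2 of 7 weeks −0.74 without replicate 3 of 12 weeks and −0.82 with a stricter filter of 5 CPM. Scg2, secretogranin II, was at 225, 264 and 138 CPM at 7 weeks and 106, 39.3 and 67.2 CPM at 12 weeks, a fold of −1.56 ± 0.52, and Chga, chromogranin A, was at 26.04, 28.8 and 32.7 CPM at 7 weeks and 8.99, 9.97 and 7.18 CPM at 12 weeks, a fold of −1.74 ± 0.52. Both were without overlap. Receptor and trophic factor lists were mixed. Of 14 glutamate receptor genes 8 lay higher, with a median of 0.12, which was −0.05 without replicate 3 of 7 weeks, with Gria2 at −1.57 ± 0.54 and Grik2 at 1.89 ± 0.75. Of 13 neurotrophic factor and receptor genes 7 lay higher, with a median of 0.12, which was −0.13 in the saline libraries alone and ranged from −0.19 to 0.39 without single saline libraries. Of 11 GABA-A receptor genes 7 lay lower and 4 higher, with a median of −0.32, which was −0.18 without replicate 2 of 7 weeks and −0.63 without replicate 2 of 12 weeks. Gabra2 was at 2.56 ± 1.30 and listed at 0 in replicate 1 of 7 weeks. Gabra4, a GABA-A receptor subunit, was at 20.9, 19.3 and 15.2 CPM at 7 weeks and 1.74, 3.42 and 4.88 CPM at 12 weeks, a fold of −2.45 ± 0.71. Hcn2, a pacemaker channel, lay higher at 1.84 ± 0.34 (edgeR adjusted p = 0.0886), but its locus in the tables carries many gene names, so its count is uncertain. Rpl26, also at an adjusted p under 0.1, was listed at 0 in the 3 libraries of 12 weeks and was at least 8.22-fold lower against a floor of 3 fragments per library. Its locus in the tables carries 2 gene names, so that value too is uncertain.

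Endothelial markers lay lower for 21 of 21 genes, 10 at an unadjusted p under 0.05 and 8 without overlap, with a median of −0.58, which was −0.30 without replicate 3 of 7 weeks. Ly6c1, a surface protein of brain endothelium, was at 3613, 6504 and 6118 CPM at 7 weeks and 2215, 2597 and 2995 CPM at 12 weeks, a fold of −1.06 ± 0.29, and Ocln, occludin of tight junctions, was at 191, 264 and 357 CPM at 7 weeks and 134, 170.4 and 141 CPM at 12 weeks, a fold of −0.87 ± 0.25. Cldn5, the main claudin of these cells, was at −0.36 ± 0.23 and Kdr, a receptor of vascular growth factor, at −0.29 ± 0.32. The list summed to 21532, 31757 and 36033 CPM at 7 weeks and 14161, 19371 and 19737 CPM at 12 weeks, without overlap, and replicate 1 of 12 weeks was the lowest library for 18 of the 21 genes. In synuclein the median was −0.13 with 14 of 21 lower. It was 0.14 with 17 of 21 higher without the libraries that lie apart, which leaves only replicate 3 of synuclein at 12 weeks. The difference between the treatments was at an unadjusted p under 0.05 for 0 of the 21. It was at that p for 8 without replicate 1 of synuclein at 12 weeks alone, where 1601 of all 17380 genes reached it. How far the lower endothelial sum moved with the genes named above, Slc2a1 among them, was not tested.

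Ependymal markers lay higher for 17 of 17 genes, 6 at an unadjusted p under 0.05, with a median of 2.06, which was 0.74 without replicate 2 of 12 weeks. Their sums were 73.3, 91.7 and 48.2 CPM at 7 weeks and 148, 452 and 117 CPM at 12 weeks. Replicate 2 of 12 weeks was highest for 16 of the 17, and the groups did not overlap in the sums. Tmem212, a membrane protein of ciliated cells, was at 0.859, 1.73 and 0.861 CPM at 7 weeks and 11.02, 52.7 and 6.89 CPM at 12 weeks, a fold of 4.31 ± 1.56, and Foxj1, the factor of motile cilia, was at 2.26 ± 1.19. In synuclein 16 of 17 lay higher, with a median of 1.6, which was −0.59 without replicate 1 of 12 weeks. Dynlrb2 and Pifo were listed at 0 in replicate 1 of 7 weeks and Enkur in replicate 1 of 12 weeks. Of 18 astrocyte markers 11 lay higher, with a median of 0.18 and overlapping sums of 603, 962 and 455 CPM at 7 weeks and 536, 755 and 677 CPM at 12 weeks. That median lay between 0.02, without replicate 3 of 7 weeks, and 0.43, without replicate 1 of 7 weeks. Aqp4, the astrocyte water channel, was at 1.44 ± 0.57 and Gfap at −0.87 ± 0.59.

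Microglia markers were mixed in saline. Of 19 genes 10 lay higher and 9 lower, with a median of 0.02 that changed sign in 12 of 25 other settings, and sums of 195, 168 and 312 CPM at 7 weeks and 216, 179 and 306 CPM at 12 weeks that overlapped. Csf1r, the receptor microglia depend on, was at 0.11 ± 0.58 and C1qb of complement at −0.20 ± 0.60. Itgam, an integrin of myeloid cells, was at 0.859, 2.31 and 1.44 CPM at 7 weeks and 8.12, 3.99 and 7.18 CPM at 12 weeks, a fold of 2.04 ± 0.84, from few fragments. Tmem119 was listed at 0 in replicate 1 of 7 weeks and replicate 2 of 12 weeks, and Trem2 in replicate 2 of 7 weeks. In synuclein 18 of the 19 lay lower, with a median of −1.64, which was −0.88 without the libraries that lie apart. The list summed to 323.7, 196.0 and 827.7 CPM in synuclein at 7 weeks and 125.2, 103.7 and 239.2 CPM at 12 weeks. Replicate 3 of synuclein at 7 weeks thus lay far above the rest, and how far the fall rested on it was not tested. Of 19 differences between the treatments 5 were at an unadjusted p under 0.05, and 4 without replicate 1 of synuclein at 12 weeks.

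**Figure D3:**
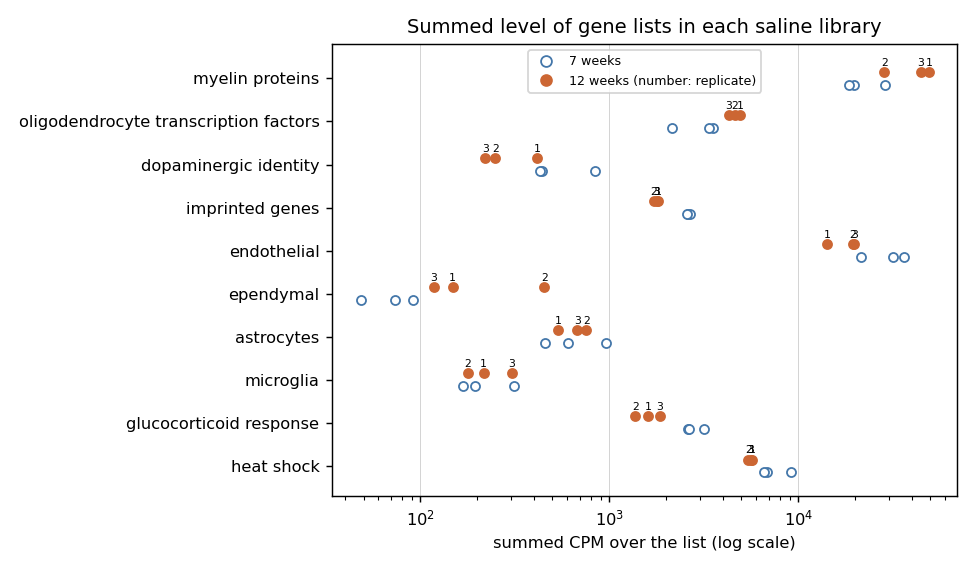
Summed CPM of 10 gene lists in each saline library, on a log axis (open, 7 weeks; filled and numbered by replicate, 12 weeks). Endothelial, imprinted, glucocorticoid and heat-shock sums lie lower at 12 weeks without overlap and ependymal sums higher, with replicate 2 of 12 weeks far above the rest at 451.9 CPM; astrocyte and microglia sums overlap.

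Glucocorticoid-responsive genes lay lower for 11 of 13 members, 4 at an unadjusted p under 0.05, with a median of −0.75. Tsc22d3, the leucine zipper protein that glucocorticoids induce, was at 529, 478 and 511 CPM at 7 weeks and 163, 159.9 and 337 CPM at 12 weeks, without overlap, a fold of −1.20 ± 0.41. Sgk1, the serum and glucocorticoid kinase whose promoter is shown above, was at 1062, 572 and 390 CPM at 7 weeks and 458, 111 and 291 CPM at 12 weeks, with overlap and a fold of −1.23 ± 0.51. Zbtb16 was at −1.66 ± 0.51, Nfkbia, the inhibitor of NF-κB, at −0.97 ± 0.28 and Fkbp5, a co-chaperone of the receptor, at −1.25 ± 0.73, while the metallothionein Mt1 was at −0.03 ± 0.22. The list summed to 3159, 2593 and 2623 CPM at 7 weeks and 1600, 1374 and 1856 CPM at 12 weeks, without overlap. The median was −0.31 without replicate 1 of 7 weeks, −0.43 without replicate 1 of 12 weeks or with the filter of 5 CPM, and −1.15 without replicate 3 of 12 weeks. In synuclein 10 of 13 lay lower, with a median of −0.36 and Tsc22d3 at −1.59 ± 0.42.

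Early-response genes lay lower for 21 of 26 members, 6 at an unadjusted p under 0.05 and 10 without overlap, with a median of −0.60. Dusp1, a phosphatase of MAP kinases, was at 168, 298 and 174 CPM at 7 weeks and 58.0, 84.9 and 122 CPM at 12 weeks, a fold of −1.27 ± 0.40, and Ier2 was at 118, 132 and 162 CPM at 7 weeks and 68.4, 76.6 and 90.2 CPM at 12 weeks, a fold of −0.81 ± 0.26. Fos was at −1.17 ± 0.68 and Egr1 at −1.53 ± 0.64. Arc, the activity-regulated gene of synapses, lay the other way, at 14.3, 26.8 and 18.9 CPM at 7 weeks and 62.9, 46.4 and 62.6 CPM at 12 weeks, without overlap, a fold of 1.52 ± 0.38. Arc was at 1.07 ± 0.38 in synuclein too, whereas Ier2 was at 0.82 ± 0.26 there, a difference of −1.63 ± 0.37 (unadjusted p = 0.000322 by edgeR, adjusted p = 0.952). Over the list the synuclein median was −0.12, and 2 of 26 differences were at an unadjusted p under 0.05 (3 without replicate 1 of synuclein at 12 weeks). Among all genes tested 4.49% of differences were at that p, and 1601 of 17380 without that library.

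Heat-shock genes lay lower for 16 of 19 members, 3 at an unadjusted p under 0.05 and 7 without overlap, with a median of −0.39. Hspb1, a small heat-shock protein, was at 386, 1226 and 676 CPM at 7 weeks and 202, 435 and 394 CPM at 12 weeks, a fold of −1.15 ± 0.38, with replicate 2 of 7 weeks highest and overlapping groups. Stip1, the co-chaperone that joins Hsp70 and Hsp90, was at 155, 199 and 122 CPM at 7 weeks and 94.5, 77.2 and 78.4 CPM at 12 weeks, a fold of −0.93 ± 0.36, and Dnaja1, a J-domain co-chaperone, was at −0.61 ± 0.27. Hsp90ab1, a constitutive Hsp90, was at −0.62 ± 0.31, and Cryab, which oligodendrocytes express, lay the other way at 0.58 ± 0.38. The sums were 6834, 9164 and 6547 CPM at 7 weeks and 5701, 5446 and 5603 CPM at 12 weeks, without overlap and nearly equal in the 12-week libraries.

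In synuclein the same list had a median of 0.41 with 18 of 19 higher. Of 19 differences between the treatments 9 were at an unadjusted p under 0.05, against 4.49% over all genes tested. Those counts rested on 1 library: without replicate 1 of synuclein at 12 weeks the synuclein median was 0.10, with 10 of 19 higher and 3 differences at that p. Over all genes tested, 1601 of 17380 differences were at that p in the same setting. The synuclein median was −0.13 once both outlying libraries were left out, which leaves only replicate 3 in that group. The saline median itself ranged from −0.43 to −0.30 over the 25 other settings.

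**Figure D4:**
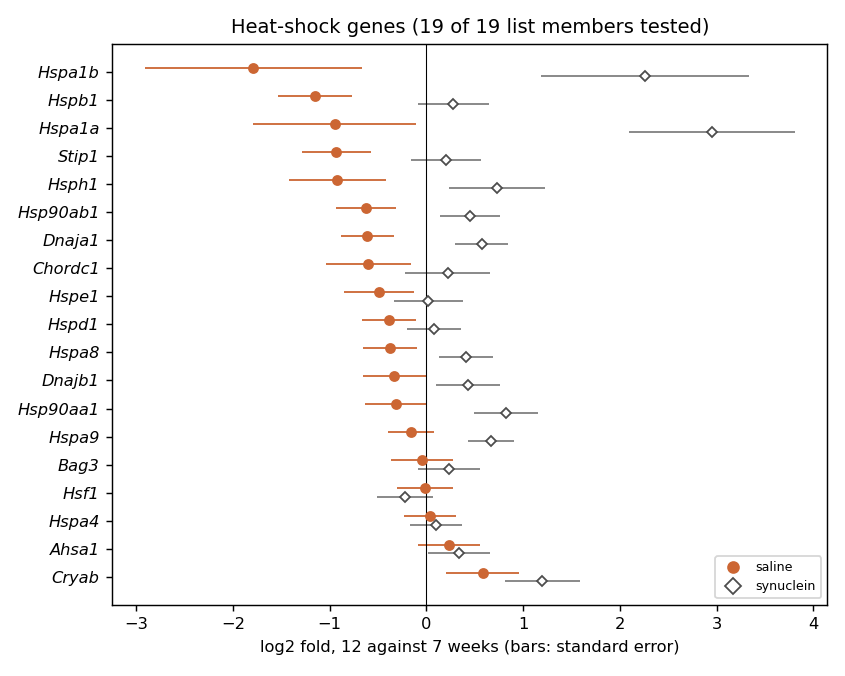
Log2 fold of 12 against 7 weeks, with its standard error, for the 19 heat-shock genes in saline (filled) and synuclein (open), ordered by the fold in saline. In saline 16 lie below 0 and in synuclein 18 lie above 0, the latter with all 3 synuclein libraries of 12 weeks included.

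Interferon-stimulated genes lay lower for 17 of 21 members, 5 at an unadjusted p under 0.05, with a median of −0.43, which was −0.18 without replicate 1 of 12 weeks. Rtp4 was at 89.3, 140.2 and 148 CPM at 7 weeks and 33.9, 46.4 and 68.6 CPM at 12 weeks, and Lgals3bp, a secreted glycoprotein, at 64.97, 90.3 and 95.8 CPM at 7 weeks and 27.3, 51.3 and 35.03 CPM at 12 weeks, both without overlap. Stat2, which carries the interferon signal, was at −0.76 ± 0.29 and Bst2, tetherin, at −0.97 ± 0.38, while Ifit3 was at 0.05 ± 0.45 and Irf7 at 0.06 ± 0.35. In synuclein the median was 0.06, and 6 of 21 differences were at an unadjusted p under 0.05 (5 without replicate 1 of synuclein at 12 weeks). The shares of all genes tested were 4.49% and, without that library, 1601 of 17380. Rtp4 was at 0.19 ± 0.30 in synuclein, a difference of −1.53 ± 0.42.

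Genes of basic metabolism lay slightly lower. Of 74 respiratory chain genes 69 lay lower, 1 at an unadjusted p under 0.05, with a median of −0.22, which was −0.05 without replicate 3 of 7 weeks. Of 79 ribosomal protein genes 69 lay lower with a median of −0.11, which was 0.01 without that library. Replicate 3 of 7 weeks, the library with the most fragments (5533321), was the highest of the 6 for 54 of the 74 and 58 of the 79 genes. Glycolysis genes lay lower for 14 of 17, 4 at that p, with a median of −0.35, which was −0.20 without replicate 3 of 7 weeks and −0.22 without replicate 1 of 12 weeks, and Eno2, the neuronal enolase, at 122, 94.6 and 62.6 CPM at 7 weeks and 51.6, 27.4 and 29.0 CPM at 12 weeks, a fold of −1.37 ± 0.43. Of 30 lysosomal genes 17 lay higher, with a median of 0.24, which was 0.07 without replicate 2 of 7 weeks.

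**Figure D5:**
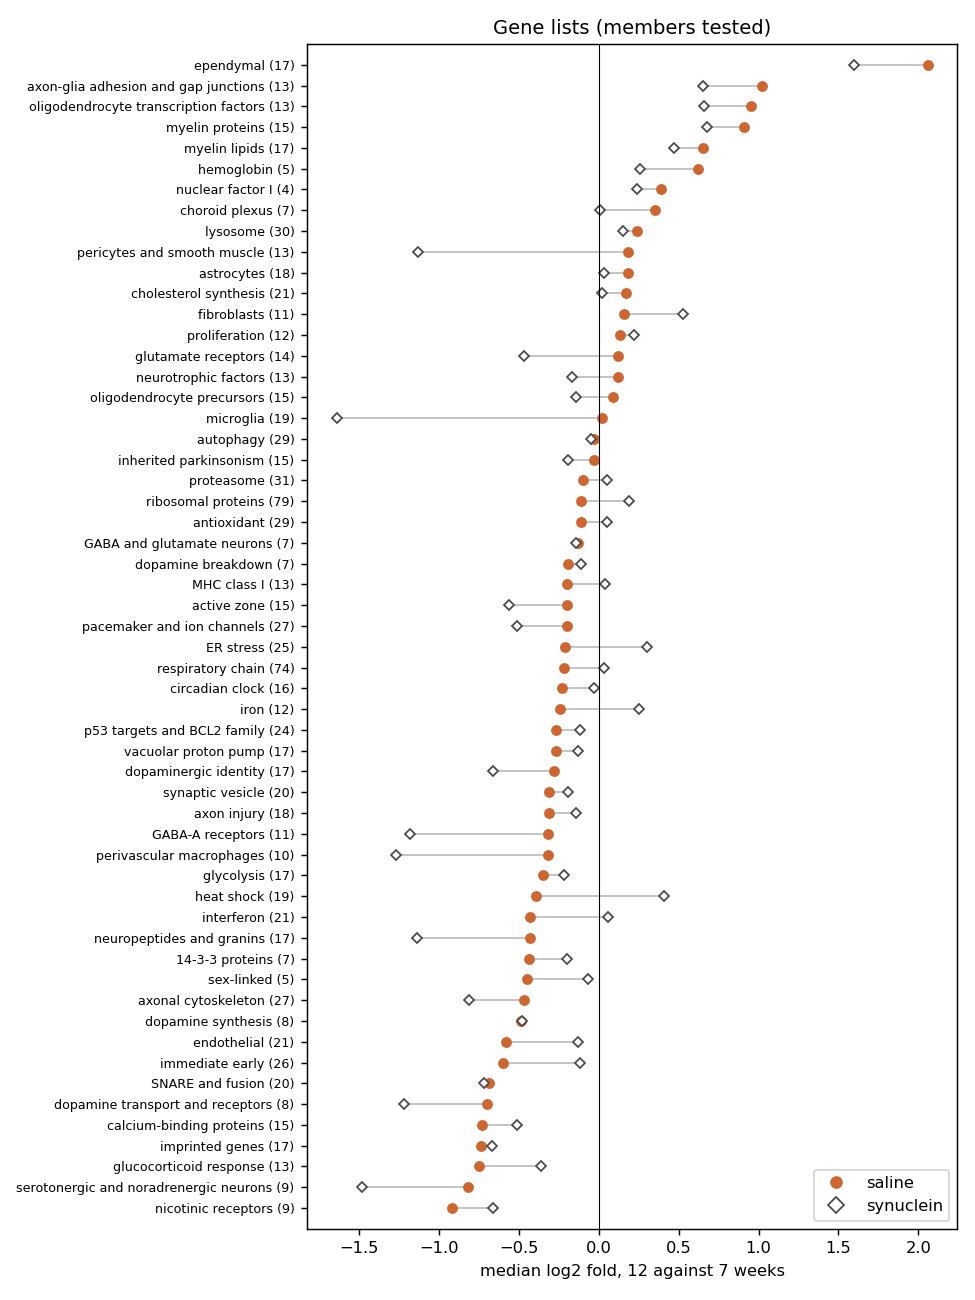
Median log2 fold of 12 against 7 weeks over the members tested of 56 of the 57 lists, in saline (filled) and synuclein (open), ordered by saline, with the number tested in parentheses. Ependymal and oligodendrocyte lists lie highest and nicotinic and glucocorticoid lists among the lowest in saline; the microglia list lies farthest from its synuclein value.

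Across all genes tested the sign of the time change in saline was the same in synuclein for 52.5%. Among the genes at an unadjusted p under 0.05 in saline it was the same for 76.1% of those higher (462 of 607) and 76.1% of those lower (519 of 682). Without the synuclein libraries that lie apart, which leaves only replicate 3 of synuclein at 12 weeks, these shares were 48.5%, 69.0% and 62.0%. Of the 49 genes called in the saline libraries alone, 45 had the same sign in synuclein, and 42 without the libraries that lie apart. Dmrtc1a was listed at 0 in the 12-week libraries and was at least 7.76-fold lower against 3 fragments per library, and Steap4, a metalloreductase, was listed at 0 in the 7-week libraries and was at least 6.87-fold higher. Map3k6, a stress-activated kinase, was at 127, 87.7 and 52.2 CPM at 7 weeks and 6.38, 17.7 and 20.96 CPM at 12 weeks, a fold of −2.57 ± 0.74, and −1.39 ± 0.71 in synuclein. Plxna2, a semaphorin receptor, was at 238, 183 and 175 CPM at 7 weeks and 66.1, 73.2 and 90.4 CPM at 12 weeks, a fold of −1.37 ± 0.34. Sult1a1, a sulfotransferase, was at 104, 144 and 114 CPM at 7 weeks and 42.05, 36.8 and 57.4 CPM at 12 weeks, a fold of −1.41 ± 0.42 and −1.82 ± 0.43 in synuclein. These genes were chosen after their values were seen, and Map3k6, Plxna2 and Sult1a1 lay lower without overlap.

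The saline libraries held 2590176 to 5533321 assigned fragments, and those of all groups 2506730 to 5533321. Folds had a median standard error of 0.53 across the genes tested, and of 0.26 for the 2158 genes above 100 CPM. Counts of Pdgfra, Bcas1, Ddc, Nfix, Pitx3, Syt1, Meg3, Csf1r, Cryab, Dnaja1 and Nfkbia are uncertain, because their loci in the tables carry other gene names too. The p-values measure the spread between these libraries, which may be technical.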

How the data were processed

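RNA of sorted midbrain cells was measured in 12 libraries of 4 groups, 3 each, made with a SMARTer Ultra-Low RNA kit after extraction in TRIzol LS, per the labels' protocols. TopHat2 2.0.13, Bowtie2 2.2.3 and Cufflinks 2.2.1 are named in the submitters' processing notes. The genome build, the annotation and the use of strand are not given in the sources used here, so reads of overlapping and antisense genes cannot be told apart. The authors deposited estimated counts of fragments per gene and FPKM values, with replicates not pooled. The deposited estimated counts had been scaled by 1 factor per library, and 98.9% to 99.2% of values were whole multiples of a step (tolerance 0.02 fragments). Coordinates are those of the deposited tables, with starts moved to count from 1.

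The estimated counts were rounded, filtered with filterByExpr, scaled by TMM and fitted with edgeR 4.0.16 (quasi-likelihood, R 4.3.3, 8 residual degrees of freedom) with 4 group means. P-values were adjusted by the Benjamini-Hochberg method over 17380 genes. CPM values use the TMM-scaled library sizes, and list sums are sums of CPM. DESeq2 1.42.0 and limma 3.58.1 served as alternatives. The alternatives were other scalings, filters and tools, recovered fragments, the saline libraries alone, the replicate block and each library left out. The replicate block in the saline libraries alone, DESeq2 on recovered fragments, and leaving out libraries in the fit of the saline libraries alone were chosen after seeing the data. The scripts were tested on simulated data.

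Genes were named by rule: the 15 with the smallest p in each direction among those without overlap and with 1 symbol per locus, leaving out models under 200 bases and predicted genes; up to 5 members of each list with the smallest unadjusted p under 0.05, or else its most abundant member; and a set with Th, Ddc, Slc6a3, Slc18a2, Drd2, Nr4a2, Pitx3 and Aldh1a1. Values of some genes so chosen are not reported here. C1qb, Cldn5, Cryab, Csf1r, Egr1, Enpp6, Fkbp5, Fos, Foxj1, Gabra2, Gfap, Hsp90ab1, Ifit3, Irf7, Kdr, Mal, Meg3, Mt1, Nefl, Olig2, Pdgfra, Stmn2, Syt1 and Tcf7l2 were added after their values were seen. The comparison, the 57 lists and the motifs were chosen with earlier results of these data known. Promoter windows are from RefSeq tables of GRCm38.p6.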

Additional observations from a re-analysis of the deposited data

How the results depend on the processing

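Against 0 genes called for time in saline, other settings gave 7 with no filter on low counts, 165 with DESeq2, 170 with DESeq2 on recovered fragments, 49 in the saline libraries alone, 14 without both synuclein libraries that lie apart, 10 at an adjusted p under 0.1, and 0 to 9 on leaving out single libraries (9 without saline replicate 2 of 12 weeks). The replicate block gave 34, and 288 in the saline libraries alone. Same-numbered saline libraries correlated at 0.04 to 0.09 in their deviations and 6 of 6 correlated best with their own number, but nothing in the labels pairs them. Between the saline and synuclein libraries of 7 weeks, same-numbered ones correlated at −0.06 to 0.07 and different-numbered ones at up to 0.08. In the saline libraries alone, leaving out single libraries gave 0 to 121 (21 without replicate 1 of 12 weeks). For time in synuclein, DESeq2 called 82 genes and 81 on recovered fragments, and leaving out single libraries gave 0 to 2. At an unadjusted p under 0.05, genes higher numbered 1046 without both synuclein libraries that lie apart, 1057 with the replicate block in the saline libraries alone and 455 to 873 on leaving out single libraries. Genes lower numbered 1064 with that block and 423 to 861 on leaving out single libraries. Upper quartile scaling moved the median of all genes to 0.11 and gave 774 higher and 481 lower. Of 172 genes named by rule, 170 kept their sign in all 25 other settings. These settings reuse the libraries by which many of the genes were chosen, so a kept sign was likely in advance. Psmb6 turned to −0.02 without saline replicate 1 or 2 of 7 weeks or replicate 1 of 12 weeks (up to 0.21 without other libraries), and Birc5 to −0.03 without saline replicate 2 of 7 weeks and −0.07 without replicate 1 of 12 weeks (up to 0.37). Of 57 list medians, 42 kept their sign in all 25. The cause of these changes was not tested. Depth limits genes of few fragments, such as Pitx3 and Drd2.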
